A study of Mus musculus with 2 samples.

Results

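Src family kinases, the kinase Syk and the enzymes and adaptors below them were examined in red pulp macrophages sorted from mouse spleen. The group held 9 genes, chosen by name: the Src family kinases Lyn, Fgr, Src and Fyn, the kinases Syk and Btk, the phospholipase Plcg2, the exchange factor Vav1 and the adaptor Lcp2 (SLP-76). Every non-control probe whose RefSeq accession belongs to one of these genes was taken, which gave 11 probes of 39429 on the array and 9 of 20659 genes with a named probe. Of the 9 genes, 8 were measured, meaning that the scanner software marked the brightest probe as well above background on either array or both; over the whole array 15833 genes met this rule.

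The study compared wild-type (WT) mice with mice that lack SIRPα (SIRPα-KO), an inhibitory receptor of myeloid cells whose ligand is CD47. The macrophages were sorted as F4/80-positive cells with low CD11b after the spleen was digested and red cells were lysed, and globin transcripts were removed from the RNA. The macrophages of 5 mice per genotype made up 1 sample, labelled with Cy3 and read on 1 array, so animals were not measured singly. No treatment of the mice is named, and the sources used here give no age, sex, strain background or allele of the knockout. The array of the second genotype is called the KO-labelled array, since its label is all that identifies it. With 1 array per genotype no difference has a replicate check and no test across samples was possible.

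ITAM signalling starts when a receptor that carries or pairs with an immunoreceptor tyrosine-based activation motif is clustered. Src family kinases phosphorylate the motif, Syk docks on it through its SH2 domains, and Syk then phosphorylates adaptors such as SLP-76, which bring Vav1, phospholipase Cγ2 and Tec family kinases such as Btk together. In macrophages this route serves Fcγ receptor phagocytosis. SIRPα acts against it: Src family kinases phosphorylate the inhibitory motifs of SIRPα, which recruit the phosphatases SHP-1 and SHP-2.

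The 5' regions of 4 members are shown because these genes differed in opposite directions between the arrays: Lcp2 and Btk were lower and Vav1 and Plcg2 higher on the KO-labelled array. The sequences are from RefSeq, build GRCm38.p6, and run 5' to 3' on the strand of the gene from 120 bases before the annotated start to 30 bases after it. Capitals mark the letters of the PU box, GAGGAA or its reverse complement TTCCTC, the core bound by the myeloid factor PU.1, and of the GC box, GGGCGG or its reverse complement CCGCCC, the core bound by Sp1.
Lcp2 (chr11:34046808-34046957, plus strand): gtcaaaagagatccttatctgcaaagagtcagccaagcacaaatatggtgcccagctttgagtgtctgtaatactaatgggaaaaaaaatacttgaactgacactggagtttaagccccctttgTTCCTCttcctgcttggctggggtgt
Btk (chrX:134583111-134583260, minus strand): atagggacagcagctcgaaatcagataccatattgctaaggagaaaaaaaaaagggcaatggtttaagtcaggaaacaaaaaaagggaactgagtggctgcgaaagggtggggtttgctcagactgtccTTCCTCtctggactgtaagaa
Vav1 (chr17:57278980-57279129, plus strand): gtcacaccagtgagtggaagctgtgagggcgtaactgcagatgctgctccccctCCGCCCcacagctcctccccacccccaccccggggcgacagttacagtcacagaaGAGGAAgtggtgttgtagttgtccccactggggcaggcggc
Plcg2 (chr8:117498155-117498304, plus strand): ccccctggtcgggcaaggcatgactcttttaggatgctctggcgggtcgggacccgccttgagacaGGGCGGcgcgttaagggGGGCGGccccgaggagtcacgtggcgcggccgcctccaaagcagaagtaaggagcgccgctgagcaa

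Windows of 300 bases, 250 before and 50 after the annotated start, were held for 8 members (9 windows, with a pair for Syk). The PU box letters occurred on either strand in windows of 6 members, Src, Fgr, Lcp2, Syk, Vav1 and Btk, against 28.3% of all 32851 windows. The GC box letters occurred in windows of 4 members, Src, Plcg2, Fyn and Vav1, against 35.7% of all windows. The PU box match began 11 bases before the start in Vav1, at base 5 of the transcript in Lcp2, at base 10 in Btk and at base 32 in Fgr. These matches are descriptions of letters. Of the 4 printed genes, the PU box letters were found in Lcp2, Btk and Vav1, and the GC box letters in Vav1 and Plcg2.

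Probes well above background made up 71.5% of the WT array and 65.3% of the KO-labelled array. The slide entry taken from both headers was 1, which does not show whether the arrays shared a slide. The signal of the targeted gene, Sirpa, was 795 ± 79.5 for WT and 1006 ± 101 for the KO-labelled sample, so it did not bear out that label (log2 difference 0.51 ± 0.20); no source used here says whether the probe lies within the deletion. Directions below follow the labels alone. Of 12 red pulp macrophage markers 11 were measured, among them Adgre1 (F4/80), Csf1r, Spic and Vcam1, while the phagocytic receptor gene Mertk was not well above background on either array. Of the 15833 measured genes, 495 (3.13%) reached 2-fold upwards and 875 (5.53%) downwards on the KO-labelled array, and the median log2 difference was -0.09. Upward genes were 36.1% of these calls, a share that was between 45.8% and 47.7% with cyclic loess, the authors' values or quantile normalization and was 20.5% without scaling and 15.2% under normexp background correction with an offset of 50.

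The members differed in both directions, and Lcp2 alone reached 2-fold. Of 8 measured members, 5 lay below 0 and 3 above it, a split close to that of all measured genes, of which 57.7% lay below 0. The median log2 difference was -0.71 against -0.09 for all measured genes. By the limit of 2-fold, 1 member (Lcp2) was lower, which stands beside 5.53% of all measured genes, and 0 were higher, beside 3.13%. At 1.5-fold, 5 of 8 were lower (Lyn, Fgr, Src, Btk and Lcp2), against 13.5% of all measured genes, and 2 of 8 higher (Plcg2 and Vav1), against 11.4%. One of the 8, Lyn, was measured only through the WT array and so could only differ downwards; the 7 genes well above background on both arrays had a median of -0.64. Of these 7, 4 were lower and 2 higher by more than the software's error, and the counts were also 4 and 2 at more than 2 times it. Of all genes well above background on both arrays, 36.2% were lower and 27.1% higher by more than the error, and 19.1% and 15.7% by more than 2 times it. The error is that of reading a spot and says nothing of the spread between mice, and each member probe was read from 1 spot per array.

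**Figure D1:**
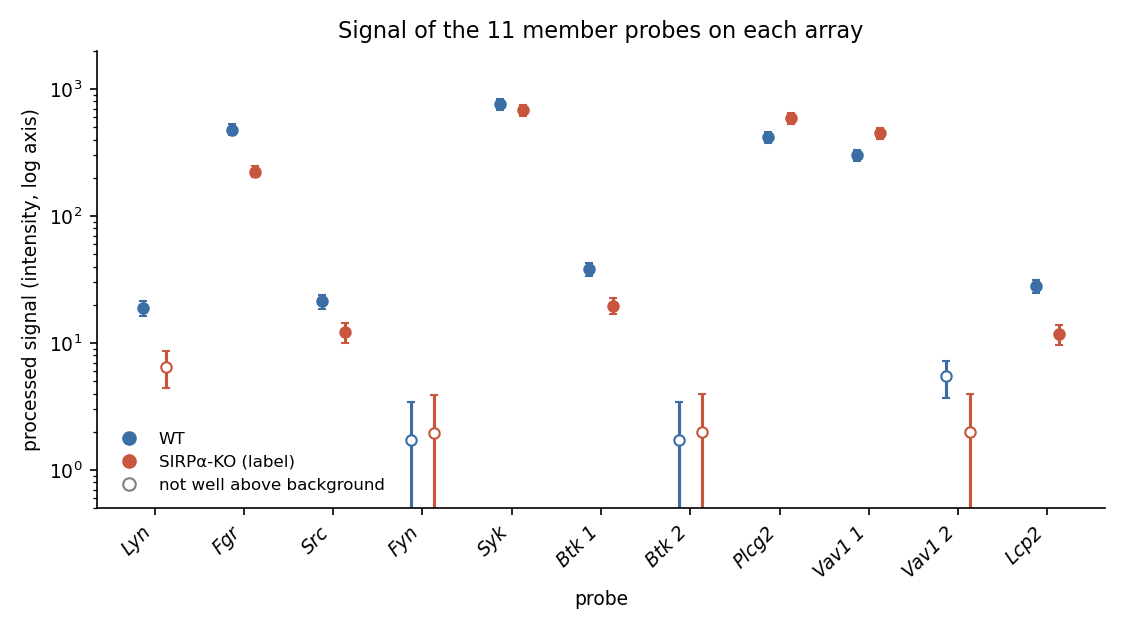
Processed signal (intensity, log axis) of the 11 member probes on the WT array (blue) and the KO-labelled array (red), with bars for the scanner software's error, which run to the bottom of the plot where the error reaches the signal; open circles are not well above background. Fgr reads 479 and 224 on the arrays, Syk 764 and 680, and the Fyn probe and the second Btk and Vav1 probes lie in the background.

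Fgr, a Src family kinase of myeloid cells, had the largest log2 difference of the member kinases measured on both arrays, and its probe was bright on each. Its signal was 479 ± 47.9 on the WT array and 224 ± 22.5 on the KO-labelled array. The scaled log2 difference was -0.93 ± 0.20, a 1.90-fold lower level that did not reach 2-fold, at percentile 6.25 of all measured genes. Under 11 other settings of processing it ranged from -1.10 to -0.79. Those that changed only the probe rule or the filter could not alter it, since Fgr had no further probe.

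Lyn, the Src family kinase that also phosphorylates inhibitory motifs, had a dim probe. Its signal was 18.8 ± 2.54 in WT and 6.53 ± 2.07 on the KO-labelled array, where it was not well above background. Set against the lowest signal well above background on that array, 8.53, Lyn was at least 1.96-fold lower in the main processing. This bound leaves out the software's error and depends on the processing. As a log2 difference it was -0.97 as reported, -1.14 without scaling and -0.79 in the authors' values. After normexp it was -0.54 with an offset of 0 and -0.10 with an offset of 50. Src, the founding member of the family, was measured on both arrays but was also dim, with signals of 21.3 ± 2.67 and 12.2 ± 2.22. Its log2 difference was -0.64 ± 0.32, or 1.56-fold lower. Fyn, a broadly used Src family kinase, gave signals of 1.73 and 1.96, neither well above background, so no fold is given.

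Syk, the kinase that docks on phosphorylated ITAMs, was the brightest member probe on both arrays and the one whose level differed least. Its signal was 764 ± 76.4 in WT and 680 ± 68.1 on the KO-labelled array, a log2 difference of 0.0027 ± 0.20 after scaling. Its sign depended on the scaling, from -0.17 without scaling to 0.28 after quantile normalization.

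Btk, the Tec family kinase that activates phospholipase Cγ2 and is best known from B cells, was lower at its brighter probe, with signals of 38.1 ± 4.22 and 19.7 ± 2.85. The log2 difference was -0.78 ± 0.26, or 1.72-fold lower. Its further probe gave 1.73 and 1.98 and was not well above background on either array, so it checks nothing. Lcp2, the SLP-76 adaptor that holds Vav1 and phospholipase Cγ2 near Syk, had the largest difference of the members measured on both arrays; Lyn, known only as a bound, cannot be ranked against it. Its signals were 27.9 ± 3.21 and 11.7 ± 2.17, a log2 difference of -1.08 ± 0.31, or 2.11-fold lower, at percentile 4.88 of all measured genes. The call at 2-fold was lost after cyclic loess (-0.99) and after normexp with offsets of 0 (-0.76) and 50 (-0.22).

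Plcg2, the phospholipase that makes the messengers for calcium release downstream of Syk, was higher on the KO-labelled array. Its signal was 420 ± 42.0 in WT and 590 ± 59.1 on the KO-labelled array. The log2 difference was 0.66 ± 0.20, or 1.58-fold higher, at percentile 90.9 of all measured genes. Vav1, the exchange factor that activates Rac during engulfment, was higher to a like degree. The brighter of its probes read 300 ± 30.1 and 446 ± 44.7, a log2 difference of 0.74 ± 0.20, or 1.67-fold higher, at percentile 93.0. Its further probe read 5.45 and 1.98 and was not well above background on either array. Neither gene reached 2-fold in any of the 11 other settings, where Plcg2 ranged from 0.49 to 0.89 and Vav1 from 0.57 to 0.91. The settings that changed only the probe rule or the filter could not alter these values, since neither gene had a further measured probe.

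**Figure D2:**
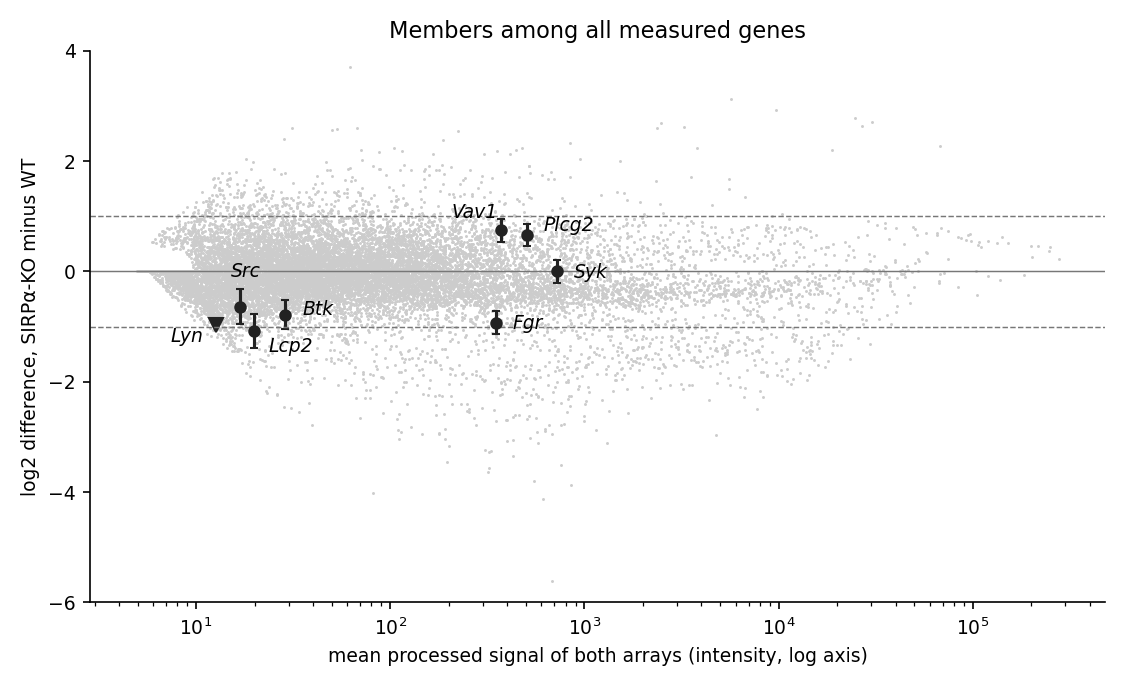
Log2 difference (KO-labelled array minus WT) against mean signal (intensity, log axis) for 15833 measured genes in grey and 8 members in black, with bars for the software's error and a triangle for the lower bound of Lyn; dashed lines mark 2-fold. Lyn, Src, Lcp2 and Btk sit together at dim signals below 0, whereas Fgr, Syk, Plcg2 and Vav1 lie at bright signals from -0.93 to 0.74.

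Brightness divided the members. Lyn, Src, Btk and Lcp2 had mean signals between 10 and 40, and all 4 lay below 0, while Lcp2 alone reached 2-fold. Among them Lyn was measured only through the WT array and so could only differ downwards. Of all measured genes 57.7% lay below 0, and the share within that range was not taken. Of 5592 measured genes in that range, 2.95% reached 2-fold downwards and 3.93% upwards, with a median of -0.07, and 122 probes of that range with 8 or more spots per array had a median spot SD of 0.20 on each array (log2). The members Fgr, Syk, Plcg2 and Vav1 had mean signals between 200 and 1000 and differed in both directions. Of 2436 genes in that range 9.32% reached 2-fold downwards and 3.33% upwards, with a median of -0.18, and the spot SD of 29 such probes was 0.11 for WT and 0.086 for the KO-labelled array.

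The dim members were also the ones that moved with the background correction. After normexp with an offset of 50, Lyn was at -0.10, Src at -0.03, Btk at -0.25 and Lcp2 at -0.22, while Fgr was at -0.86, Plcg2 at 0.53 and Vav1 at 0.60. With an offset of 0, Lyn was at -0.54, Src at -0.26, Btk at -0.71, Lcp2 at -0.76 and Fgr at -0.94. No member other than Syk changed sign in any setting.

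**Figure D3:**
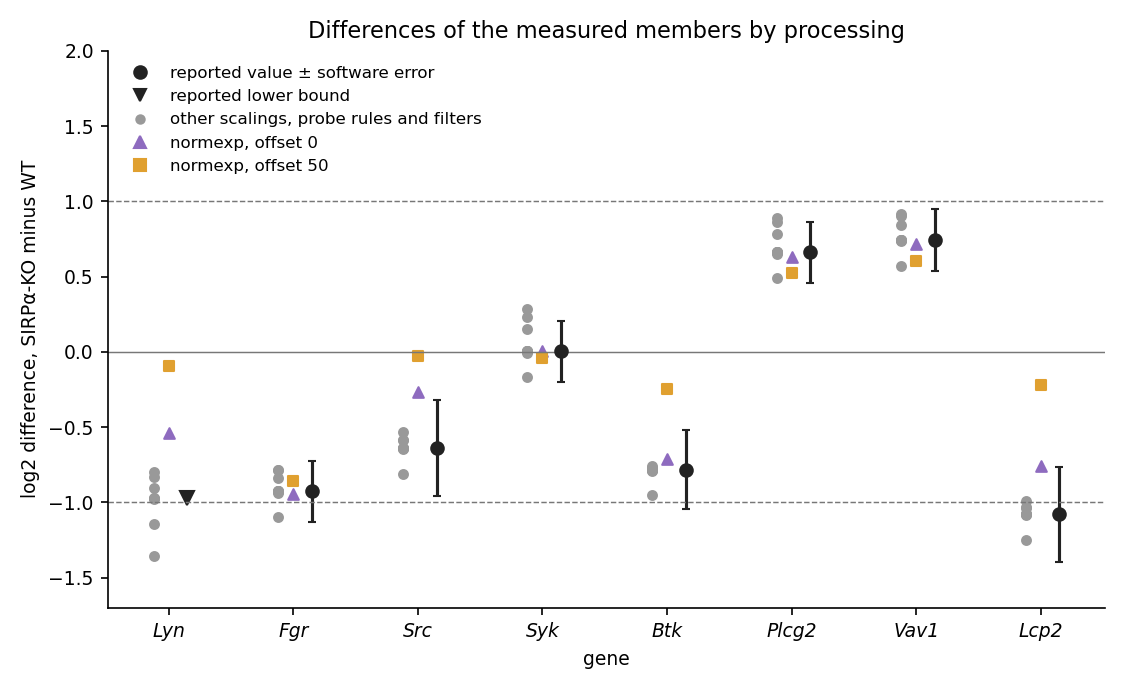
Log2 difference of the 8 measured members as reported (black, with the software's error; triangle for the lower bound of Lyn) and under other processing: grey points for other scalings, probe rules and filters, purple triangles and yellow squares for normexp with offsets of 0 and 50. Fgr keeps to -1.10 to -0.79 and Vav1 to 0.57 to 0.91, whereas Src moves from -0.64 to -0.03 with the offset of 50.

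Differences between members on the same array do not depend on a scaling factor common to all probes. Relative to Plcg2, Fgr was 3.01-fold lower with the KO label than in WT (difference of log2 differences -1.59 ± 0.29, range over settings -1.68 to -1.38). Relative to Syk it was 1.90-fold lower (-0.93 ± 0.29). Lcp2 was 3.54-fold lower relative to Vav1 (-1.82 ± 0.37), and Btk 2.72-fold lower relative to Plcg2 (-1.44 ± 0.33); under the offset of 50 these were -0.82 and -0.77. Src relative to Syk was at -0.64 ± 0.38, and its range over settings, -0.87 to 0.01, included 0. These pairs, and the pairs with Lck, Csk and Blnk given below, were chosen after the values of their genes were seen.

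The Src family has further members outside the group, and the brightness of 9 family probes, 1 for each of 9 genes, was put in order; the order covers these genes and not the whole family. Brightness depends on the probe as well as on the transcript: for 2614 genes that had several probes measured on both arrays, the brightest probe had a median of 3.44 times the WT signal of the next. The order is therefore one of probes. On the WT array Fgr was the brightest of the 9, at 479 and percentile 88.6 of all probes on the array. Lck, best known from T cells, followed at 236 ± 23.6, a gap of 2.03-fold that was larger than the error. A gap of 9.59-fold then led to Yes1 (24.6), Src (21.3) and Lyn (18.8), whose neighbours did not differ beyond their error, and to Srms (13.6). Blk, Frk and Fyn were not well above background.

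On the KO-labelled array, Fgr (224 ± 22.5) and Lck (215 ± 21.6) were the brightest of the 9 and did not differ beyond their error. Yes1 (14.6), Src (12.2) and Srms (10.3) followed after a gap of 14.7-fold, and Lyn, Fyn, Blk and Frk were not well above background. The order of the probes well above background was the same on both arrays after normexp of the median signals with an offset of 50. The authors' values never fell as the processed signal rose on either array, so their order had to be the same and checks nothing. Lck differed between the arrays by 0.04 ± 0.20, Yes1 by -0.58 ± 0.29 and Srms by -0.23 ± 0.38. With the normexp offset of 50, Yes1 was at -0.07 and Srms at -0.03. Relative to Lck, Fgr was 1.95-fold lower on the KO-labelled array (-0.96 ± 0.29, range over settings -1.04 to -0.91). Of the 6 measured genes among the 9, 5 lay below 0 (57.7% of all measured genes did) and 0 reached 2-fold either way. Among those 5, Lyn was measured only through the WT array and could only differ downwards.

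**Figure D4:**
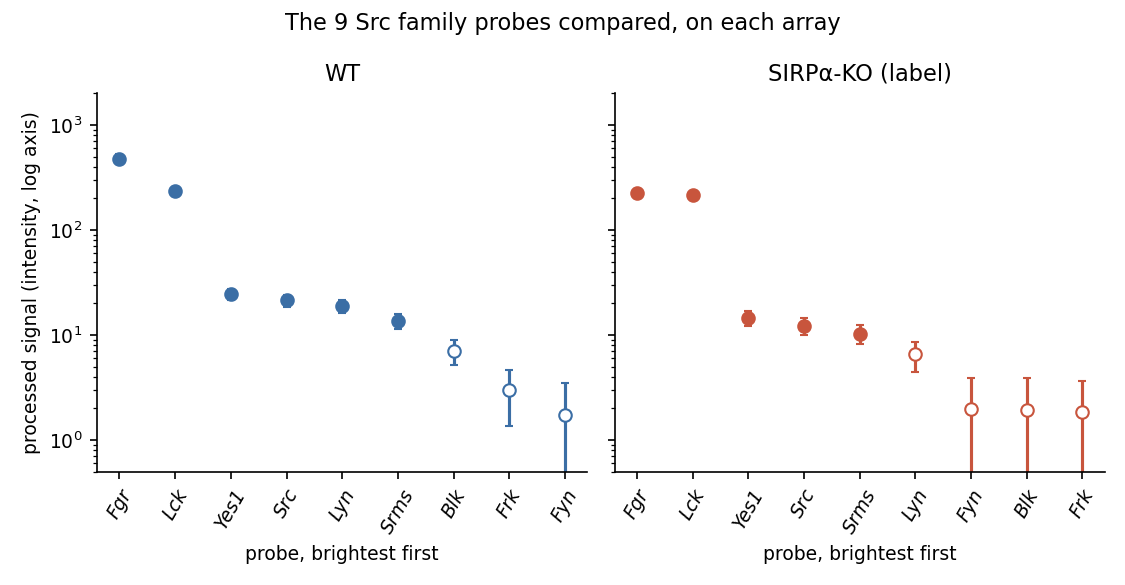
Processed signal (intensity, log axis) of the 9 Src family probes compared, on each array, brightest first, with bars for the software's error that run to the bottom of the plot where it reaches the signal; open circles are not well above background. Fgr leads these probes on the WT array at 479, and on the KO-labelled array Fgr and Lck lie at 224 and 215.

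The other genes of the route were taken from 9 lists that held 117 genes besides the members. Of these, 97 were measured, 9 reached 2-fold upwards and 6 downwards, and 48 lay above 0 and 48 below it. These counts, and those of each list and marker set below, stand beside the shares of all measured genes. Those shares were 3.13% at 2-fold upwards, 5.53% at 2-fold downwards and 57.7% below 0. Of the ITAM chains and hemITAM receptors, 0 of 9 measured were 2-fold apart (median -0.05). Fcer1g, the Fc receptor γ chain, read 908 ± 90.8 in WT and 572 ± 57.2 on the KO-labelled array, a log2 difference of -0.50 ± 0.20. Tyrobp, which encodes the adaptor DAP12, was dim, at 13.7 and 11.8, and differed by -0.05 ± 0.41. Of 4 measured further Syk and Tec family genes, 0 were 2-fold apart (median -0.22), Zap70 being at -0.19, with 0.23 at its further probe, and Bmx at -0.36.

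Receptors that pair with ITAM chains differed both ways. Of 14 measured, 4 reached 2-fold upwards and 2 downwards (median 0.22). Clec5a, a DAP12-linked lectin, was 3.61-fold higher, from 28.8 to 92.4, the Fcγ receptor gene Fcgr1 2.35-fold, the lipid receptor gene Trem2 2.34-fold and Cd300ld 2.04-fold higher. The fungal lectin genes Clec4d and Clec4e went the other way, 6.04-fold lower (806 to 119, log2 difference -2.60 ± 0.21) and 2.20-fold lower (308 to 124). After normexp with an offset of 50, Clec5a (0.94), Fcgr1 (0.995), Cd300ld (0.79) and Clec4e (-0.96) no longer reached 2-fold, while Trem2 and Clec4d did in all 11 other settings. Probe rules and filters could not alter the values of Trem2 and Clec4d, which had no further probe. Of 14 inhibitory receptors, 1 reached 2-fold upwards and 0 downwards (median -0.03): Clec4a2, which carries an inhibitory motif, was 3.39-fold higher, from 94.4 to 284.

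The brakes of the route included a regulator of the Src family itself. Of 17 measured phosphatases and brakes, 2 reached 2-fold upwards and 1 downwards (median 0.08). Csk, the kinase that phosphorylates the inhibitory tail tyrosine of Src family kinases, was 2.22-fold higher, with signals of 48.1 ± 5.15 and 94.9 ± 9.73 (log2 difference 1.15 ± 0.21, down to 0.61 after normexp with an offset of 50). Relative to Fgr, Csk was 4.22-fold higher on the KO-labelled array (2.08 ± 0.30, range over settings 1.47 to 2.08). Relative to Src it was 3.46-fold higher (1.79 ± 0.38, range over settings 0.64 to 1.79). Both pairs join a gene already seen to be higher with one already seen to be lower, so a large value follows from the choice. The adaptor Dok3 was 2.53-fold higher, from 19.0 to 42.6, and at 0.39 after normexp with that offset. The ubiquitin ligase gene Cblb was 2.39-fold lower, from 17583 to 6536. Of the phosphatases that SIRPα recruits, Ptpn6 (SHP-1) was at -0.62 ± 0.34 with a WT signal of 19.1, and Ptpn11 (SHP-2) at 0.59 ± 0.20. After normexp with an offset of 50, Ptpn6 was at -0.06. Inpp5d (SHIP-1) was at 0.61 ± 0.21, and Ptprc (CD45), which activates Src family kinases by removing the tail phosphate, at 0.18 ± 0.21, 1 of 3 activating phosphatases of which 0 were 2-fold apart.

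Adaptors had a median of 0.16, with 2 of 14 measured at least 2-fold higher and 0 lower. Gab3 and Fyb were 7.57-fold and 2.64-fold higher at their brighter probes, but their further probes differed by 0.13 and 0.07. Blnk, the adaptor that links Syk to Btk and phospholipase Cγ2 in place of SLP-76, read 923 ± 92.3 and 1336 ± 134, a log2 difference of 0.71 ± 0.20. Btk was 2.80-fold lower relative to Blnk (-1.49 ± 0.33). Of 19 measured downstream effectors, 3 were at least 2-fold lower and 0 higher (median -0.02). Rac2, the Rac GTPase of blood cells that Vav1 activates, was 3.35-fold lower, from 1456 to 386 (-1.74 ± 0.20), while Vav1 itself was higher. Malt1, the NF-κB scaffold protease, was 2.34-fold lower, from 566 to 215. Pik3ap1, an adaptor for phosphoinositide 3-kinase, was not well above background on the KO-labelled array and so at least 2.82-fold lower there; it was at -0.22 after normexp with an offset of 50.

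**Figure D5:**
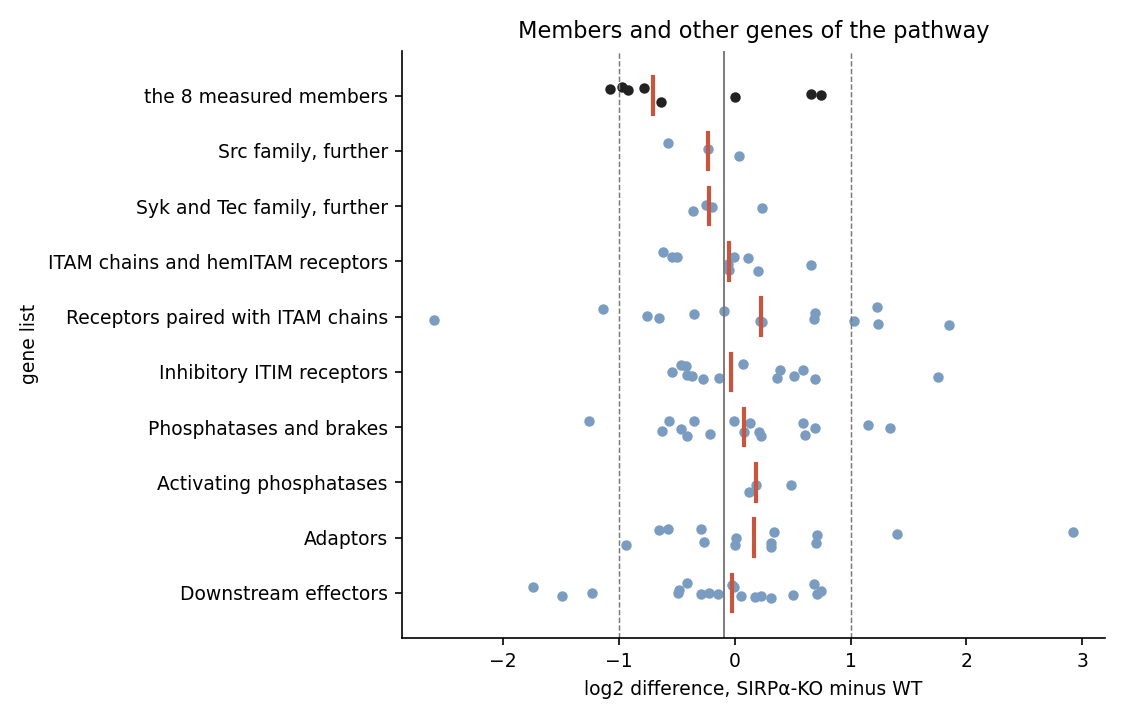
Log2 difference (KO-labelled array minus WT) of each measured gene in 9 lists of the route and of the 8 measured members; red bars are medians, the grey line is the median of all measured genes and dashed lines mark 2-fold. The median of the members is -0.71, and those of the other lists run from -0.23 to 0.22.

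Markers of other cells that use these genes were read beside them, since in pooled RNA fewer cells of a type and less RNA per cell cannot be told apart. Of 9 T cell markers, all measured, 1 reached 2-fold downwards and 0 upwards (median -0.01), and their summed signal, in units of each array's 75th percentile, was 365 for WT and 188 for the KO-labelled sample, or 86.5 and 72.2 without Cd8b1. The brightest were Cd8b1, 2.41-fold lower from 27895 to 10283, and Cd4 at -0.17 (-0.43 at its further probe). Also below 0 were Cd3e at -0.62 (2169 to 1255), Cd5 at -0.08 and Cd3g at -0.01. Above it were Lat at 0.31, Cd3d at 0.20, Cd8a at 0.02 and Cd28 at 0.008. The brighter Cd8a probe was itself dim, at 22.2 and 19.9. Of 9 B cell markers, 7 were measured, with 1 at least 2-fold lower (median -0.06) and a summed signal of 24.4 and 12.3, or 8.98 and 8.67 without Cr2. Cr2 was at -2.07 and, at its other probe, at 0.31, Fcer2a was at -0.25, and Ebf1 was not well above background on either array. Of 5 measured plasma cell markers 4 lay below 0 and 2 of these were at least 2-fold lower (median -0.81). Jchain was 6.87-fold and Derl3 2.08-fold lower, Derl3 at -0.24 after normexp with an offset of 50. Sdc1 was not well above background on the KO-labelled array and was at -0.81 as a bound. Xbp1 was at 0.31 and Prdm1 at -0.0026. The part of these cells in the differences of Btk, Lcp2 and Lck was not tested.

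Markers of myeloid cells and platelets were mixed. Of 11 measured red pulp macrophage markers 5 lay above 0 and 6 below it (median -0.14). Above it, Adgre1 was at 0.78, but at -0.47 at its further probe, Csf1r at 0.19 and Cd5l 2.75-fold higher (0.61 after normexp with an offset of 50). Also above it were Spic at 0.17 and Siglec1 at 0.12, the latter at -0.65 at its further probe. Below it were C1qa, at least 1.66-fold lower, Cd163 at -0.56, C1qb at -0.34, Hmox1 at -0.31, Vcam1 at -0.21 and Slc40a1 at -0.14. The summed signal of the 11, in the same units, was 147 for WT and 204 for the KO-labelled sample, or 78.4 and 87.2 without Adgre1. Neutrophil and monocyte markers had medians of -0.16 and -0.15 over 5 and 3 measured genes. Elane (-0.05), Camp (-0.04), Vcan (-0.19) and Chil3 (0.09) were their brightest, S100a8 was 2.34-fold lower (-0.52 after normexp with that offset), and Ngp, Mpo and Ccr2 were not well above background. Conventional dendritic cell markers had a median of -0.16 over 7 genes, with Flt3 2.10-fold lower (-0.80 after quantile normalization, and -2.25 at its further probe) and Cd209a at -0.98 (-0.05, a bound, at its further probe). Plasmacytoid dendritic cell markers had a median of 0.03 over 4 (Siglech 0.68, with 0.036 at its further probe, and Ccr9 -0.81), NK cell markers one of -0.17 over 5 (Prf1 -0.18, Gzma -0.17), and platelet markers one of 0.09 over 8 (Pf4 0.20, Gp9 -0.51, Gp1ba 2.72-fold higher, at 0.66 after normexp with an offset of 50). Fgr is shared by macrophages, monocytes and neutrophils, and the part of these cells in the Fgr difference was not tested.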

How the data were processed

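The deposited scanner tables hold linear spot intensity from Agilent Feature Extraction 11.0.1.1 (mouse design 26655, genome build mm9), per the file headers, which also hold statistics of background subtraction and spatial detrending; the deposited software flags are given by the authors as other columns. The deposited value table of the authors holds log2 values with a median of 4.56 in each column; no source used here states how they were normalized, and the sorted columns differ by at most 0.184. Flagged spots (190 and 167 of 43020 non-control spots) were left out, and 0 were saturated. Each processed signal was taken to log2 and the array's 75th percentile (signals of 100.1 and 89.0) subtracted. Of 39429 probes, 27234 matched a RefSeq symbol (GRCm38.p6, names only) by unversioned accession. The probe with the highest mean signal represented a gene. Where 1 array was not well above background, that side took the larger of its measured value and the array's lowest value well above background (signals of 7.92 and 8.53). The difference is a lower bound only where that lowest value was used. Such a bound leaves out the software's error. Differences run KO-labelled minus WT, with the software's error of both arrays.

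Named were all members, the Src family genes compared, Sirpa, Tyrobp, Fcer1g, Ptpn6, Inpp5d, Ptprc, Csk, Blnk, list genes at least 2-fold apart and the 2 brightest markers of each cell type. Added after their values were seen were Ptpn11, Zap70, Bmx and markers not well above background. So were further markers of red pulp macrophages, T cells, plasma cells and conventional dendritic cells. The members, lists and motifs were chosen with earlier results of these data known. A Src family gene and a marker are not reported here and were left out of the lists. Alternatives were other scalings (limma 3.58.1 in R 4.3.3), background correction, probe rules, filters and fold limits. The gene step, in Python 3.11.15, was tested on simulated data.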

Additional observations from a re-analysis of the deposited data

How the results depend on the processing

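The tables hold no mean spot signal, so normexp was run on median signals; this and the offset of 0 were chosen after seeing the data. The number of members at least 2-fold lower, 1 as reported, was 3 without scaling (Lyn, Fgr and Lcp2), 2 when dim probes were kept, 5 at 1.5-fold, and 0 at 3-fold, after cyclic loess and after normexp with either offset; the number higher, 0, was 2 at 1.5-fold. The median of the members, -0.71, was -0.068 after normexp with an offset of 50 and -0.40 with an offset of 0, and lay between -0.88 and -0.64 in the other settings. Over all genes, the 495 higher became 306 without scaling, 883 with no filter, 1811 at 1.5-fold, 105 at 3-fold, and 104 and 310 after normexp with offsets of 50 and 0. The 875 lower became 1653 with no filter, 2139 at 1.5-fold, 377 at 3-fold and 581 after normexp with an offset of 50. Fold limits and the filter change counts by construction, as does an added offset for dim probes; the other causes were not tested. The median of all measured genes moved from -0.09 to -0.26 without scaling. The dimmer probe of Cr2 gave 0.31. The medians of 9 route lists and 10 marker lists moved by more than their typical error in 4 of 99 and 9 of 110 recomputations. No paired analysis was possible because each genotype had 1 array. Signal over background limits Lyn, Src, Btk and Lcp2 most, and Fyn could not be compared.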
